A study of Solanum tuberosum with 8 samples.

Results

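Gene expression was compared between potato tubers of D6 and of X2 at 4 h after cutting. The comparison rests on 6 libraries, 3 of D6 and 3 of X2, which were chosen by their labels from the 21 libraries of the series that were used. X2 is the tetraploid cultivar Xingjia 2, and each of its replicates was a mix of 3 tubers that had been stored after harvest, cut and kept in moist air, with tissue taken from the epidermis to the pith. D6 is known here by its code alone, and the labels give no ploidy, parentage, age or storage for its tubers. Both groups carry the same tissue and the same treatment, cut-wounding, in the labels. The remaining libraries are from 0, 12 and 24 h after cutting, and the D6 material at 0 h is a single library. Whether D6 and X2 tubers were grown, stored and sequenced together is not given in the sources used here, so the genotype of the tubers and any such difference cannot be told apart.

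A cut potato tuber closes its surface with a layer of suberin, a polymer of phenolics and fatty acid derivatives, over which a new periderm later forms. Phenylalanine ammonia-lyase (PAL) opens the phenylpropanoid pathway that supplies the phenolics. Polyphenol oxidase (PPO) and peroxidase (POD) oxidise phenolics, which leads to the brown pigments of fresh-cut tubers, and peroxidases also join phenolics in the cell wall. Respiratory burst oxidase homologs (Rboh) produce superoxide at the plasma membrane, superoxide dismutase (SOD) converts it to hydrogen peroxide, and catalase (CAT) removes hydrogen peroxide.

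Expression is given as FPKM, a fragment count scaled to gene length and library size. Between 24226307 and 29809160 reads lay on genes in the D6 libraries and between 30642779 and 33895501 in the X2 libraries, and 3 reads on a gene of 1 kb corresponded to an FPKM of 0.101 to 0.124 and of 0.0885 to 0.0979, respectively. On log2(FPKM + 1), the correlation across genes was 0.979 to 0.982 within D6, 0.990 to 0.994 within X2 and 0.914 to 0.925 between them, and genes are not independent replicates. The median SD between replicates was 0.20 in D6 and 0.13 in X2 on the log2(FPKM + 0.1) scale. Of the described tuber storage genes, the 1 patatin was at 0.902 to 2.44 FPKM in D6 and at 0.445 to 4.08 in X2. The 2 protease inhibitors of this set summed to 10.3 to 21.2 FPKM in D6 and to 2.0 to 2.81 in X2, without overlap. No starch synthesis gene was described, so the tuber label could be checked only weakly.

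A gene was called when its difference on log2(FPKM + 0.1), the log2 fold change (log2FC), was at least 1 in either direction with an unadjusted p of at most 0.01 in limma. Tests covered the 19455 genes whose mean FPKM reached 0.5, and 3516 of them were called (18.1%). D6 was higher in 1905 of them (9.79% of the genes tested) and X2 in 1611 (8.28%). All 3516 genes had libraries that did not overlap between D6 and X2, against 60.4% of all genes tested (21.4% with D6 and 39.0% with X2 on the higher side), and their largest Benjamini-Hochberg adjusted p was 0.0243. Large differences lay more often on the D6 side, with 905 genes higher in D6 and 481 higher in X2 by a log2FC of at least 2, and 186 and 99 genes by at least 4. Over all tested genes the log2FC had a median of -0.16, and median-of-ratios size factors moved it by 0.14 to -0.01. With that scaling 17.8% of the genes were called, 2195 higher in D6 (11.3%) and 1260 higher in X2 (6.48%), so the share of calls on the D6 side went from 54.2% to 63.5%. Changes below are on the deposited scale, on which the typical gene lay 0.16 under 0.

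**Figure D1:**
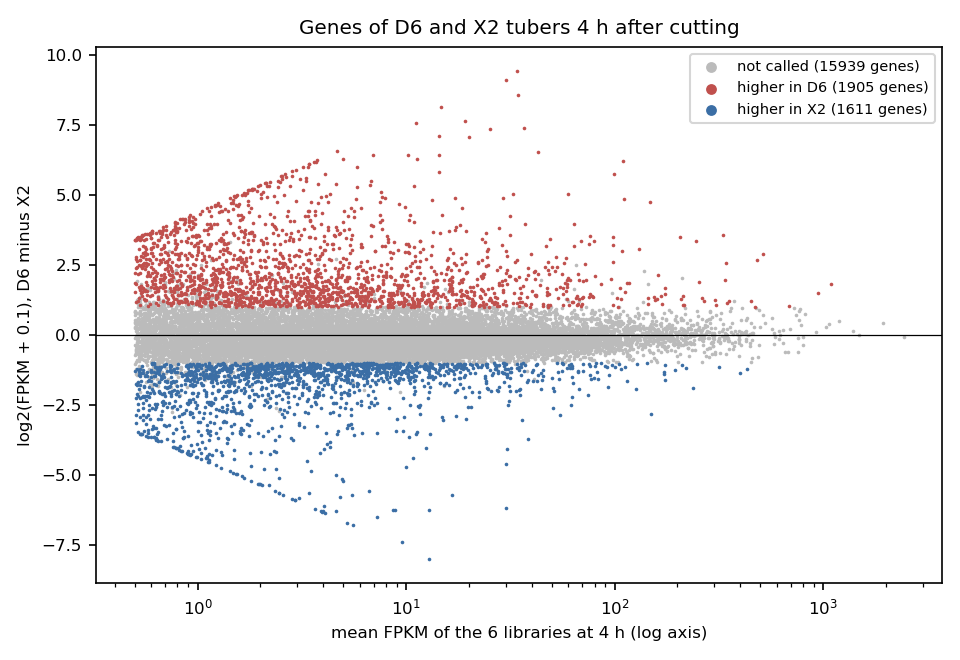
Difference between D6 and X2 on log2(FPKM + 0.1) against the mean FPKM of the 6 libraries (log axis) for the 19455 genes tested at 4 h. The 1905 genes higher in D6 reach further from 0 than the 1611 higher in X2. The straight outer edges hold genes at or near 0 FPKM in 1 of the groups.

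Genes called in the browning families were mostly higher in D6, and those of catalase were higher in X2. The lists of the study hold 72 different PAL, PPO, POD, Rboh, CAT and SOD genes, of which 58 were tested. Of these, 21 were called higher in D6 (36.2%) and 4 higher in X2 (6.90%). Over all genes tested the shares were 9.79% and 8.28%, which stand beside the counts of each family below as well. The 58 genes had a median log2FC of 0.69 against -0.16 over all genes. The filter keeps a gene that is high in either group, and 57 of the 72 genes reached a mean FPKM of 0.5 in X2 and 59 in D6. Without the filter 71 were tested, with 21 called higher in D6 and 7 higher in X2. Over all 29274 genes tested without it the shares were 8.82% and 7.33%. The study chose these genes on the X2 libraries, the 4 h ones among them, so the counts are not independent evidence of a direction. Copies within these families are similar in sequence, and how reads were divided between them is uncertain.

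All 10 PAL genes passed the filter. 3 of them were called higher in D6 and none higher in X2, and 9 lay above 0. PGSC0003DMG400031365 was the most abundant PAL gene called, at 284, 337 and 307 FPKM in the D6 libraries and at 97.0, 118 and 139 in the X2 libraries. The groups stood apart, with a log2FC of 1.4 ± 0.14 (SE, n = 3 and 3, limma adjusted p = 0.000329). PGSC0003DMG400023458 was at 72.0, 90.2 and 85.8 FPKM in D6 and at 23.4, 29.5 and 38.0 in X2, a log2FC of 1.47 ± 0.18 (limma adjusted p = 0.00074). The third gene, PGSC0003DMG400019386, was low in both, at a mean of 1.21 FPKM in D6 and 0.397 in X2, and its log2FC of 1.42 went to 0.66 with a pseudocount of 1. Other abundant PAL genes differed less at 4 h. PGSC0003DMG401021549 had means of 127 FPKM in D6 and 161 in X2, and PGSC0003DMG402021549 had 250 and 174.

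Most PPO genes were higher in D6. Of 6 genes, 5 were tested, all 5 lay above 0 with a median log2FC of 1.93, and 4 were called higher in D6. PGSC0003DMG400018914 was at 175, 265 and 258 FPKM in D6 and at 34.5, 21.3 and 28 in X2. The lowest D6 library lay far above the highest X2 library, and the log2FC was 3.06 ± 0.22 (limma adjusted p = 8.59e-05). Catechol oxidase B, PGSC0003DMG400029575, was at 84.4, 138 and 115 FPKM in D6 and at 26.1, 26.2 and 35.0 in X2 (log2FC 1.93 ± 0.19, limma adjusted p = 0.000363). PGSC0003DMG400029576 differed by 1.8 ± 0.29, and polyphenol oxidase A, PGSC0003DMG400018917, by 2.86 ± 0.37 from low means of 1.59 FPKM in D6 and 0.137 in X2. The fifth gene, PGSC0003DMG400018916, had means of 85.5 and 30.9 FPKM and missed the threshold (log2FC 1.29 ± 0.44, limma adjusted p = 0.0431).

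The peroxidases differed in both directions. Of 41 POD genes 31 were tested, 11 were called higher in D6 and 2 higher in X2, and the median log2FC was 0.70. Without the FPKM filter 40 were tested, with 11 called higher in D6 and 4 higher in X2. The suberization-associated anionic peroxidase 2, PGSC0003DMG400022341, belongs to the peroxidases linked to the phenolic part of suberin. It was at 129, 118 and 98.2 FPKM in D6 and at 15.6, 8.99 and 13.8 in X2, with no overlap and a log2FC of 3.19 ± 0.21 (limma adjusted p = 6.2e-05). Its neighbour by name, PGSC0003DMG400022342, had means of 3.07 and 2.65 FPKM (log2FC 0.18 ± 0.21). PGSC0003DMG400032199 was at 5.81, 21.1 and 11.5 FPKM in D6 and at 1.59, 0.989 and 1.4 in X2 (log2FC 3.01 ± 0.44). The predicted peroxidase Novel01676, on chromosome 2 at 40053139 to 40060067 on the minus strand of SolTub_3.0, was at 4.15, 4.81 and 3.06 FPKM in D6 and at 0.927, 0.342 and 0.744 in X2 (log2FC 2.48 ± 0.35). The most abundant peroxidase called was peroxidase 12, PGSC0003DMG401025083, at 594, 302 and 730 FPKM in D6 and 129, 126 and 137 in X2 (log2FC 1.96 ± 0.29), and it is named here because of its level, after its values were seen. On the other side, PGSC0003DMG400032147 was at 24.2, 27.0 and 49.6 FPKM in D6 and at 94.4, 64.6 and 77.0 in X2 (log2FC -1.28 ± 0.27), and peroxidase 17, PGSC0003DMG400016223, had means of 0.898 and 4.51 FPKM (log2FC -2.23 ± 0.25). The number of peroxidases higher in X2 went from 2 to 4 when any 1 of the D6 libraries was left out. The abundant peroxidase PGSC0003DMG400011640 was at a mean of 259 FPKM in D6 and 277 in X2, a log2FC of -0.10 ± 0.09.

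Of 7 Rboh genes 6 were tested and 3 were called higher in D6, with a median log2FC of 1.31. Without the FPKM filter all 7 were tested, 3 were called higher in D6 and 1 higher in X2, and the median was 0.65. RbohA, PGSC0003DMG400012316, was at 9.56, 14 and 7.50 FPKM in D6 and at 1.88, 2.22 and 3.68 in X2 (log2FC 1.96 ± 0.30, limma adjusted p = 0.00198). Novel03252, an NADPH oxidase on chromosome 8 at 55364623 to 55372032 on the plus strand, was at 12.6, 18 and 8.30 FPKM in D6 and at 2.54, 2.08 and 4.36 in X2 (log2FC 2.07 ± 0.34). RbohB, PGSC0003DMG400024754, was scattered in D6, at 26.5, 3.16 and 12.7 FPKM, and lay at 1.75, 0.676 and 0.965 in X2. Its log2FC of 3.17 ± 0.73 (limma adjusted p = 0.01) passed the threshold with all libraries. It missed the p threshold with recovered reads in limma-voom (log2FC 3.43) and without D6 replicate 3 (3.02), X2 replicate 2 (2.88) or X2 replicate 3 (3.11). RbohC, PGSC0003DMG400014168, was the most abundant of the family, with means of 48.5 FPKM in D6 and 51.2 in X2 and a log2FC of -0.11 ± 0.18.

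Catalase stood on the side of X2. Of 4 CAT genes 3 were tested and 2 were called higher in X2. PGSC0003DMG400029408 was at 107, 76.2 and 125 FPKM in D6 and at 391, 385 and 346 in X2, and every X2 library held more than every D6 library (log2FC -1.89 ± 0.17, limma adjusted p = 0.000255). Catalase isozyme 3, PGSC0003DMG400009906, had means of 0.803 and 2.70 FPKM (log2FC -1.63 ± 0.20). Catalase isozyme 2, PGSC0003DMG400001570, had means of 27.3 FPKM in D6 and 17.3 in X2 (log2FC 0.68 ± 0.31) and was not called. None of the 3 tested SOD genes was called by limma, all 3 lay below 0 with a median log2FC of -0.47, and the lowest was PGSC0003DMG400027577 at means of 10.9 and 20.1 FPKM (log2FC -0.88 ± 0.08).

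**Figure D2:**
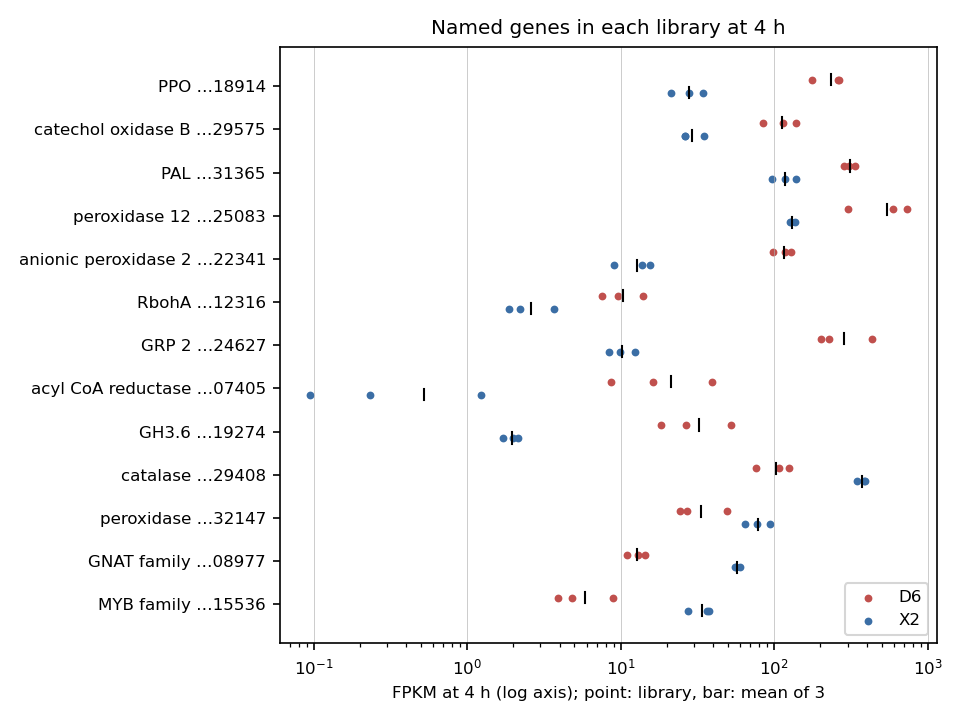
FPKM at 4 h (log axis) of 13 genes in the 3 D6 and the 3 X2 libraries, with the mean of each group as a bar. The 9 upper genes, from PPO to GH3.6, lie higher in every D6 library, and the 4 lower genes, from catalase to a MYB gene, lie higher in every X2 library.

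In the flavonoid list most genes tested were not called. Of 16 flavonoid genes 10 were tested, 2 were called higher in D6 (against 9.79% of all genes) and none higher in X2, and the other 8 lay below 0 with a list median of -0.26 (-0.11 with size factors). Without the FPKM filter all 16 were tested, with 4 called higher in D6 and 1 higher in X2, against 8.82% and 7.33% of all genes. Chalcone synthase 2, PGSC0003DMG400019110, which makes the first flavonoid skeleton, was at 29, 28.5 and 37.9 FPKM in D6 and at 32.3, 38.2 and 69.2 in X2, so the groups overlapped (log2FC -0.48 ± 0.27, limma adjusted p = 0.182). Chalcone isomerase, PGSC0003DMG400011655, had means of 10.4 and 10.5 FPKM, and flavonol synthase, PGSC0003DMG400014093, had 43.9 and 49. The genes called were an anthocyanin acyltransferase, PGSC0003DMG400007801, at 1.54, 4.96 and 3.18 FPKM in D6 and 0.368, 0.247 and 0.420 in X2 (log2FC 2.78 ± 0.42), and an elicitor-inducible cytochrome P450, PGSC0003DMG400013684. The study also lists the P450 for phenylpropanoid biosynthesis and phenylalanine metabolism, so it is not particular to flavonoids. This gene was at 42.5, 7.68 and 40.3 FPKM in D6 and at 2.11, 1.25 and 1.94 in X2 (log2FC 3.70 ± 0.63). Of the 15 genes listed for phenylpropanoid biosynthesis 10 were tested. Of these, 5 were called higher in D6 and none higher in X2, against 9.79% and 8.28% of all genes. The filter keeps a gene that is high in either group, and 8 of the 15 reached a mean FPKM of 0.5 in X2 and 10 in D6. Without it all 15 were tested and 6 were called higher in D6 and none higher in X2, against 8.82% and 7.33% of all genes. The 15 were listed by the study for a large change in X2, so these counts are not independent evidence of a direction. Among the 5 called, 3 are the peroxidases Novel01675 and Novel01676 and the P450. The 2 others were a sinapyl alcohol dehydrogenase, PGSC0003DMG400016114, with means of 7.33 and 0.253 FPKM, and an alcohol dehydrogenase, PGSC0003DMG400021152, with 9.10 and 0.162.

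Several genes with large differences toward D6 are known for roles in the wall or in surface lipids, and apart from the epimerase and the expansins they were picked by the size of their difference. Acyl CoA reductase, PGSC0003DMG400007405, is of a family that makes the fatty alcohols of suberin and wax. It was at 8.66, 39.2 and 16.2 FPKM in D6 and at 1.23, 0.235 and 0.0952 in X2 (log2FC 5.33 ± 0.78, limma adjusted p = 0.00164). It is 1 of 3 genes the study lists for cutin, suberine and wax biosynthesis, and the other gene tested, the sterol desaturase PGSC0003DMG402023841, was higher in X2, at 0.212, 0.031 and 0.0725 FPKM in D6 and 2.83, 1.798 and 1.77 in X2 (log2FC -3.51 ± 0.38). At 12 h and at 24 h 2 genes of that list were called higher in X2 by limma and none higher in D6. A non-specific lipid-transfer protein, PGSC0003DMG402016309, of a family that binds lipids outside the cell, was at 12.3, 32.6 and 12.0 FPKM in D6 and at 1.26, 0.324 and 0.543 in X2 (log2FC 4.56 ± 0.52). A laccase, PGSC0003DMG400000684, of a family that oxidises lignin precursors, was at 8.63, 22.9 and 11.6 FPKM in D6 and at 0.770, 0.637 and 0.408 in X2 (log2FC 4.27 ± 0.38). In the reductase, the lipid-transfer protein and the laccase D6 replicate 2 was the highest library. A xyloglucanase inhibitor, PGSC0003DMG400008978, was at 34.4, 11.6 and 13.9 FPKM in D6 and at 0.391, 0.969 and 1.30 in X2 (log2FC 4.30 ± 0.51). UDP-D-glucuronic acid 4-epimerase, PGSC0003DMG400004659, which provides the sugar unit of pectin, was at 16.8, 14.7 and 11.2 FPKM in D6 and at 0.574, 0.801 and 0.956 in X2 (log2FC 4.04 ± 0.22, limma adjusted p = 3.35e-05). Expansins loosen the wall, and were looked at after their values were seen. Of 4 described expansin genes 3 were tested and all 3 were called higher in D6, against 9.79% of all genes (8.28% higher in X2). Their descriptions come from the study's tables of genes that changed in X2, the 4 h libraries included, so this count is not independent evidence of a direction. Expansin11, PGSC0003DMG400009951, led them at 66.2, 63.7 and 48.8 FPKM in D6 and at 3.70, 2.15 and 3.33 in X2 (log2FC 4.26 ± 0.21). At 12 h none of the 3 tested was called by limma, and at 24 h 3 of 4 were called higher in X2 and none higher in D6, with a median log2FC of -1.10.

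Other described genes far higher in D6 had other roles. GRP 2, PGSC0003DMG400024627, was the most abundant of them, at 200.1, 430 and 228 FPKM in D6 and at 12.4, 8.34 and 9.85 in X2 (log2FC 4.73 ± 0.29, limma adjusted p = 4.84e-05). A RING-type zinc finger protein, PGSC0003DMG400024061, of a class in which many members attach ubiquitin, was at 20.6, 29.6 and 35.5 FPKM in D6 and at 0.610, 0 and 0.390 in X2 (log2FC 6.42 ± 0.68). A basic 7S globulin 2, PGSC0003DMG400008985, was spread widely in D6, at 54.2, 4.70 and 27.0 FPKM, and narrowly in X2, at 0.245, 0.221 and 0.257 (log2FC 5.81 ± 0.79). Purple acid phosphatase 20, PGSC0003DMG400002696, which releases phosphate from its esters, was at 12.4, 15 and 6.93 FPKM in D6 and at 0.358, 0.0255 and 0.290 in X2 (log2FC 5.28 ± 0.53). RSI-1, PGSC0003DMG402015689, a protein known from tomato roots, was at 71.9, 58.8 and 39.3 FPKM in D6 and at 2.32, 1.31 and 1.81 in X2 (log2FC 4.88 ± 0.27). None of these groups overlapped. The 7S globulin missed the p threshold when recovered reads were tested with limma-voom, at a log2FC of 6.42. In the 7S globulin, the P450, RbohB and the bHLH gene below, D6 replicate 2 was the lowest D6 library, whereas in GRP 2, the acyl CoA reductase, the lipid-transfer protein and the laccase it was the highest.

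All members of the hormone list that passed the FPKM filter and were called were higher in D6 at 4 h. It holds 24 genes of auxin, gibberellin, ethylene, cytokinin and jasmonate signalling or metabolism, of which 17 were tested, 6 were called higher in D6 (35.3%, against 9.79% of all genes) and none higher in X2 (against 8.28%), with a median log2FC of 0.72. The study listed the pathway members for a large change after cutting in X2, and the X2 libraries of 4 h took part in that choice. These counts are therefore not independent evidence of a direction. Without the FPKM filter all 24 were tested at 4 h, with 8 called higher in D6 and 1 higher in X2, against 8.82% and 7.33% of all genes. At 12 h 3 were called higher in D6 and 3 higher in X2, and at 24 h 2 and 2. GH3.6, PGSC0003DMG400019274, which couples the auxin indole-3-acetic acid to amino acids, was at 18.3, 52.5 and 26.8 FPKM in D6 and at 2.16, 1.71 and 2.0 in X2 (log2FC 3.85 ± 0.35, limma adjusted p = 0.00023). A gibberellin regulated protein, PGSC0003DMG400001227, was at 6.37, 10.6 and 7.54 FPKM in D6 and at 0.0771, 0.597 and 0.121 in X2 (log2FC 4.75 ± 0.51). The Tify gene PGSC0003DMG400028800, of the family that holds the repressors of jasmonate signalling, was at 7.40, 6.58 and 9.47 FPKM in D6 and at 1.43, 1.46 and 2.0 in X2 (log2FC 2.19 ± 0.20). The other 3 were TIFY 9, a glucosyltransferase listed for zeatin and ent-kaurenoic acid oxidase, a gibberellin biosynthesis enzyme, with log2FC of 1.96 to 2.06. Among those not called were 1-aminocyclopropane-1-carboxylate synthase 3, PGSC0003DMG400021426, which makes the ethylene precursor, at means of 1.19 and 1.48 FPKM, and the ethylene-responsive factor ERF114, PGSC0003DMG400025582, at 1.64 and 2.72.

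The pathogenesis list had no member called higher in X2. Of its 18 genes 12 were tested, all 12 lay above 0 with a median log2FC of 1.38, and 7 were called higher in D6 (58.3%). Over all genes 9.79% were called higher in D6 and 8.28% higher in X2. The pathway members of this list, too, were chosen by the study on X2 libraries that included those of 4 h, so the direction is not independent evidence. The 7 were the epimerase and both Tify genes given above, a calcium-binding protein, 2 chitinases, which cut fungal cell walls, and an osmotin. The count of 7 ranged from 5 to 9 when single libraries were left out. The osmotin, PGSC0003DMG400003057, was at 3.2, 0.961 and 3.39 FPKM in D6 and at 0.654, 0.0191 and 0.108 in X2 (log2FC 3.12 ± 0.75, limma adjusted p = 0.0121), and it missed the p threshold without D6 replicate 1 (log2FC 2.86) or 3 (2.82) or X2 replicate 2 (2.54) or 3 (2.94). Class II chitinase, PGSC0003DMG400001528, had means of 10.5 and 4.31 FPKM and chitinase 1, PGSC0003DMG400015523, had 9.11 and 3.41, while endochitinase 2, PGSC0003DMG400026854, had 18.8 and 17.5 and was not called. Proteinase inhibitor IIa, PGSC0003DMG400030593, of a family made in potato after wounding, was at 10.3, 21.2 and 13 FPKM in D6 and at 2.0, 1.77 and 2.30 in X2 (log2FC 2.76 ± 0.26).

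Transcription factors as a whole were called about as often as all genes tested. Of 1157 listed genes 1026 were tested, 95 were called higher in D6 (9.26%, against 9.79% of all genes) and 67 higher in X2 (6.53%, against 8.28%). Their median log2FC was -0.09, and 0.06 with size factors. The families were not tested against each other. In AP2-EREBP, which holds the ethylene response factors, 15 of 75 tested genes were higher in D6 and 2 higher in X2. In WRKY, a family of defence regulators, 8 of 40 were higher in D6 and none in X2. In MYB the counts were 11 and 5 of 72, in bHLH 7 and 3 of 41, in C2H2 8 and 2 of 39, and in Tify 4 and 1 of 11. In RWP-RK none of 13 was higher in D6 and 3 were higher in X2.

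The bHLH gene PGSC0003DMG400006394 had the largest difference toward D6 among the listed transcription factors. It was at 34.6, 5.53 and 20.8 FPKM in D6 and at 0.213, 0.0248 and 0.0703 in X2 (log2FC 6.41 ± 0.67, limma adjusted p = 0.000422). It missed the p threshold with recovered reads in limma-voom, at a log2FC of 7.76. WRKY 13, PGSC0003DMG400010987, was at 2.13, 2.62 and 4.44 FPKM in D6 and at 0.0364, 0.0605 and 0.0668 in X2 (log2FC 4.29 ± 0.32). An AUX/IAA gene, PGSC0003DMG400013765, of the family of auxin response repressors, was at 3.08, 5.81 and 4.70 FPKM in D6 and at 0.0960, 0.182 and 0.158 in X2 (log2FC 4.21 ± 0.30). The opposite extreme was the RWP-RK gene Novel01111, on chromosome 11 at 34634095 to 34636389 on the minus strand, at 0.112, 0.0207 and 0.0727 FPKM in D6 and at 6.07, 8.98 and 13.5 in X2 (log2FC -5.80 ± 0.35). A G2-like gene, PGSC0003DMG400021857, was at 0.238, 0.386 and 0.113 FPKM in D6 and at 3.09, 4.08 and 6.16 in X2, and a second RWP-RK gene, PGSC0003DMG401032501, had means of 0.0609 and 1.39. All 6 genes had groups that did not overlap.

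**Figure D3:**
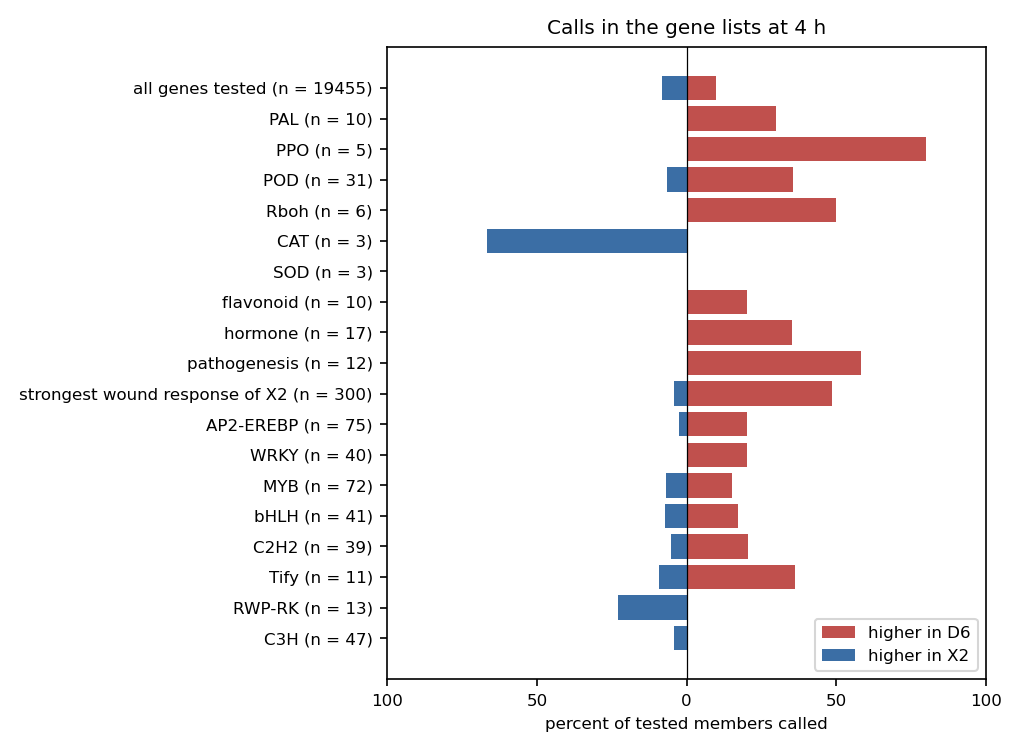
Percent of the tested members of each list that were called higher in D6 (to the right) or higher in X2 (to the left) at 4 h, with the number tested in parentheses. All genes tested stand on top at 9.79% and 8.28%, and the longest bars are PPO, with 4 of 5 genes higher in D6, and CAT, with 2 of 3 higher in X2.

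On the side of X2, the largest differences among described, abundant genes were below those on the side of D6. The MYB gene PGSC0003DMG400015536 was at 4.83, 3.92 and 8.90 FPKM in D6 and at 37.5, 36.3 and 27.5 in X2 (log2FC -2.57 ± 0.29, limma adjusted p = 0.000562). TSI-1, PGSC0003DMG401001494, was at 2.69, 1.55 and 1.18 FPKM in D6 and at 11.6, 8.72 and 8.99 in X2 (log2FC -2.44 ± 0.29). The GNAT gene PGSC0003DMG400008977, of an acetyltransferase family, had the tightest groups, at 11, 14.4 and 13 FPKM in D6 and at 56.3, 55.3 and 59.9 in X2 (log2FC -2.16 ± 0.11). A pair of TAZ genes, of a family with a zinc finger first known from transcriptional adaptors, differed alike. PGSC0003DMG400015229 was at 11.4, 12.1 and 9.62 FPKM in D6 and at 32.7, 51.5 and 46.6 in X2, and PGSC0003DMG401026984 was at 28.2, 35.5 and 24.2 FPKM in D6 and at 71.7, 108 and 111 in X2. A second MYB gene, PGSC0003DMG400011294 (log2FC -1.76 ± 0.15), a Sigma70-like gene, PGSC0003DMG400009072 (-1.70 ± 0.13), PAR-1b, PGSC0003DMG400030006 (-1.70 ± 0.28) and a heat shock factor, PGSC0003DMG400027036 (-1.66 ± 0.22), completed the largest ones beside catalase. Their X2 means were 28, 19.6, 13.7 and 7.94 FPKM, against 8.30, 5.92, 4.35 and 2.52 in D6.

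Genes with a strong wound response in X2 were more often higher in D6 than in X2. The study lists 662 different genes by the size of their change after cutting in X2, and 567 of them had an X2 mean at 4, 12 or 24 h above that at 0 h by a log2 of at least 1. The X2 libraries of 4 h took part in that choice, so this direction is not independent evidence. Of the 662 genes 300 passed the FPKM filter at 4 h, and 146 of these were called higher in D6 and 13 higher in X2. These are 48.7% and 4.33%, against 9.79% and 8.28% of all genes tested, and the median log2FC was 1.25 against -0.16. The filter keeps a gene that is high in either group, and 316 of the 662 genes reached a mean FPKM of 0.5 in D6 and 240 in X2. Without the filter 658 genes were tested, of which 179 were higher in D6 and 34 higher in X2, with a median of 0.46, where 8.82% and 7.33% of all 29274 genes (16.1% together) were called. Among the 240 genes at an X2 mean of at least 0.5, 91 were higher in D6 and 20 in X2. In 124 of the 146 genes the X2 mean was higher at 12 h or 24 h than at 4 h (84.9%), as in 109 of the 154 other wound genes tested (70.8%) and in 51.3% of all genes tested. The 146 were chosen for a low X2 level at 4 h from a list of genes that change in X2, so nothing is read from that share. The X2 mean came to lie at or above the D6 mean of 4 h in 76 of them. For the same list the limma calls at 12 h were 117 higher in D6 and 41 higher in X2 of 414 tested, and at 24 h 63 and 59 of 514, where 6.55% and 6.05%, and 6.47% and 5.31%, of all genes were called. Members differ between hours through the filter, so the same genes were also followed, a choice made after seeing the data. The 245 genes tested at every hour had a median difference of 1.4 in the 4 h libraries, 0.62 in those of 12 h and 0.001 in those of 24 h, and the 658 genes without the filter one of 0.46, 0.23 and -0.21.

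**Figure D4:**
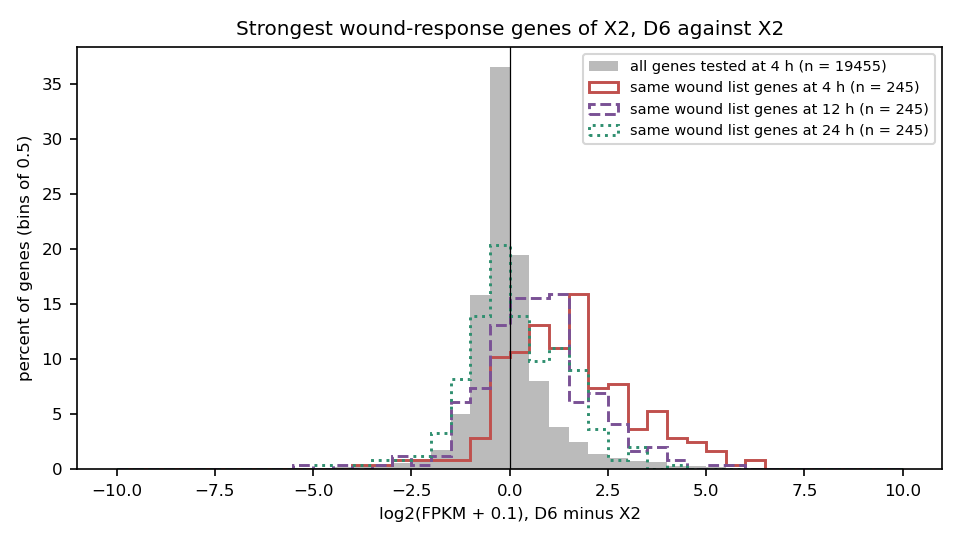
Distribution of the difference between D6 and X2 on log2(FPKM + 0.1), in bins of 0.5, for all 19455 genes tested at 4 h (grey) and for the 245 genes of the wound list that were tested at every hour (lines), each as a percent of its genes. The 3 lines hold the same genes, with medians of 1.4 for the line of 4 h, 0.62 for 12 h and 0.001 for 24 h, and the 4 h filter helped to choose those genes.

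The difference between D6 and X2 at 4 h was next set beside those of the later hours, which come from other libraries. At 12 h 2462 of 19549 genes were called (12.6%) and at 24 h 2381 of 20208 (11.8%). Of the 1905 genes higher in D6 at 4 h, 1594 were tested at 12 h, and 767 of these were called higher in D6 (48.1%, and 59.9% of all such calls at 12 h) and 5 higher in X2. At 24 h the numbers were 713 of 1646 (43.3%, and 54.6% of the calls at 24 h) and 27. Of the 1611 genes higher in X2 at 4 h, 669 of 1487 were called higher in X2 at 12 h and 563 of 1472 at 24 h.

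The change of the difference itself was tested as an interaction term, the difference at 4 h minus that at 12 h. It was called for 1322 of 19812 genes (6.67%), 838 of them more positive (4.23%) and 484 more negative (2.44%) at 4 h. Of the genes higher in D6 at 4 h, 515 of 1790 tested had a larger difference at 4 h than at 12 h and 14 a smaller one, and of the genes higher in X2 272 and 29 of 1567. These genes were chosen on the 4 h values that also enter the term, which favours a larger difference at 4 h, so the counts are a description. Against 24 h, where X2 has 2 libraries, 1575 of 20360 genes were called (7.74%), 959 (4.71%) and 616 (3.03%) in these directions.

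In GRP 2 the difference was smaller at 12 h, with means of 34.5 FPKM in D6 and 15.4 in X2 and of 37.0 and 48.4 at 24 h (term against 12 h 3.6 ± 0.37, limma adjusted p = 0.000431). The acyl CoA reductase had means of 23.6 and 14.2 FPKM at 12 h (term 4.50 ± 1.07, limma adjusted p = 0.0209) and the xyloglucanase inhibitor of 8.19 and 7.80 (term 4.17 ± 0.64). The RING-type zinc finger gene, PGSC0003DMG400024061, still differed at 12 h, at 6.29 and 1.56 FPKM, but by less (term 4.32 ± 0.86). RSI-1 was higher in D6 at 4 h and at 12 h and higher in X2 at 24 h, where the means were 53.3 and 141 FPKM (log2FC -1.4). The most abundant called PPO gene, PGSC0003DMG400018914, stayed higher in D6 at every hour, at 125 and 31.9 FPKM at 12 h and 118 and 52.7 at 24 h, with a larger difference at 4 h than at 12 h (term 1.08 ± 0.28, limma adjusted p = 0.0294). For anionic peroxidase 2 the term was 0.20 ± 0.37 (limma adjusted p = 0.764), while its level went from 115 FPKM in D6 and 12.8 in X2 at 4 h to 5.65 and 1.23 at 24 h. For catalase PGSC0003DMG400029408 it was -0.28 ± 0.26 (limma adjusted p = 0.528), with X2 higher at each hour tested. On the X2 side, the Sigma70-like gene had means of 10.6 FPKM in D6 and 10.1 in X2 at 12 h (term -1.77 ± 0.18, limma adjusted p = 0.000397), the TAZ gene PGSC0003DMG400015229 of 14.5 and 16.7 (term -1.72 ± 0.29) and the MYB gene PGSC0003DMG400015536 of 11.9 and 20.5 (term -1.79 ± 0.33).

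**Figure D5:**
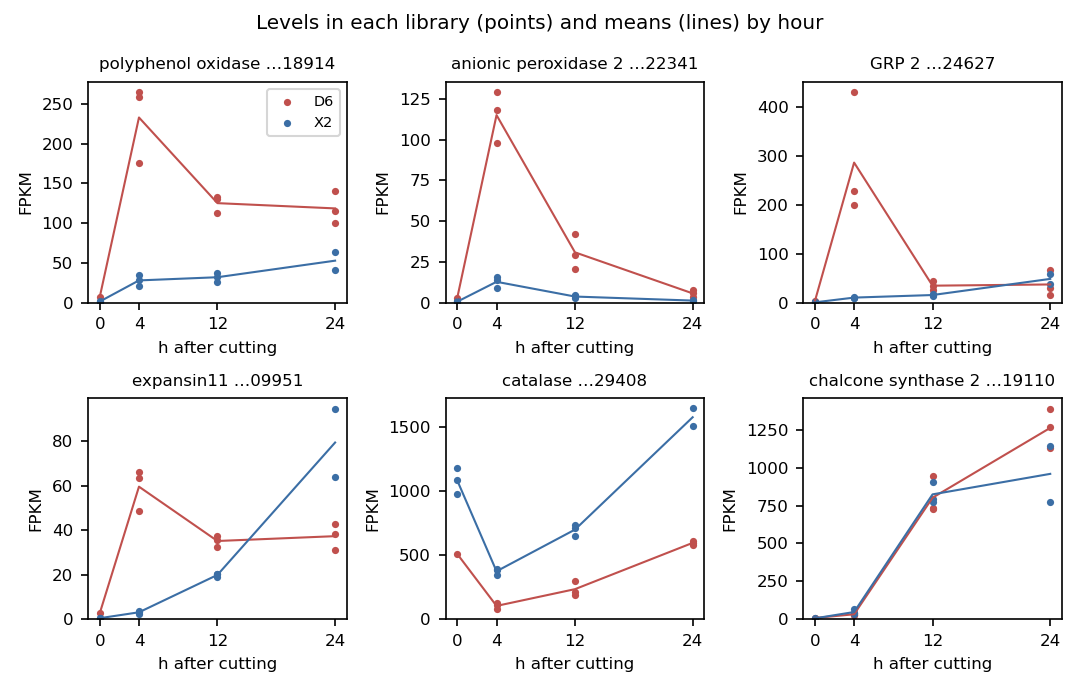
Time course of the FPKM of 6 genes at 0 h, 4, 12 and 24 h after cutting, in each D6 and X2 library (points), with the mean of each hour joined by lines. D6 has 1 library at 0 h and X2 has 2 at 24 h. Polyphenol oxidase, anionic peroxidase 2, GRP 2 and expansin11 peak at 4 h in D6, catalase lies higher in X2 throughout, and chalcone synthase 2 overlaps at 4 h.

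At 0 h the single D6 library allows values but no test. Of the 1905 genes higher in D6 at 4 h, 1522 had a higher FPKM in that library than in all 3 X2 libraries of 0 h (79.9%, against 41.9% of all genes tested). Of the 1611 genes higher in X2 at 4 h, 1102 were lower in it than in all 3 (68.4%, against 36.3%). The levels themselves were often small. Of the 146 wound genes higher in D6, 127 lay above all X2 libraries at 0 h, and 92 were under an FPKM of 0.5 there in D6. PGSC0003DMG400018914 was at 6.97 FPKM in D6 and at a mean of 1.32 in X2, anionic peroxidase 2 at 3.08 and 0.578, and catalase PGSC0003DMG400029408 at 509 and 1083. Every PAL gene lay above its X2 mean of 0 h in the D6 library. Among those not called at 4 h, PGSC0003DMG402021549 was at 670 FPKM in D6 and 56.7 in X2, and PGSC0003DMG401021549 at 114 and 14.1.

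Some genes were found in 1 of the groups alone at 4 h. In D6, 141 genes had a mean FPKM of at least 0.5, more than 3 reads in each library and 0 in all 3 X2 libraries, and 78 of these were at 0 in all 11 X2 libraries of every hour. In X2 there were 114 such genes, 78 of them at 0 in all 10 D6 libraries. Predicted genes made up 67 of the 141 and 51 of the 114. The highest in D6 was Novel03004, on chromosome 7 at 54414452 to 54424460 on the plus strand, at 64.1, 71 and 69.3 FPKM, at least 415-fold higher than the FPKM of 3 reads per library, averaged over the X2 libraries. PGSC0003DMG400002093 was at 13, 40.4 and 13.2 FPKM (at least 216-fold higher), and at 12 h and 24 h D6 means of 1.76 and 0.524 remained. The next 3 were PGSC0003DMG400012453, PGSC0003DMG400040825 and PGSC0003DMG400024062, with means of 9.36, 7.49 and 7.40 FPKM. In X2 the highest was PGSC0003DMG400042108 at 28.5, 25.6 and 22.9 FPKM (at least 263-fold higher), followed by Novel03267, on chromosome 8 at 4301367 to 4302327 on the minus strand, at 13.9, 32.8 and 10.3. Novel03267, which is short, was at 0 in the 3 D6 libraries of 4 h and in 1 of 24 h, with D6 means of 5.01 and 4.26 FPKM at 12 h and 24 h. Novel02671, Novel01367 and PGSC0003DMG401024222, with X2 means of 11.1, 10.4 and 8.16 FPKM, were at 0 in all 10 D6 libraries. None of these 10 genes has a description in the sources used here, and a sequence that differs between D6, X2 and the reference was not examined as a reason for a value of 0.

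Among all called genes without regard to description, 2 others had large differences toward D6. PGSC0003DMG400011954 was at 846, 1363 and 709 FPKM in D6 and at 3.21, 1.15 and 2.42 in X2 (log2FC 8.74 ± 0.38), and was at 2089 and 22.8 at 24 h. PGSC0003DMG400031871 was at 48.7, 57.8 and 74.1 FPKM in D6, and X2 held 1 read of it in all 3 libraries.

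Markers of other tissues that a radial block can hold were few in the descriptions. The 12 histone genes summed to 13.7 to 25.5 FPKM in D6 and to 8.73 to 20.4 in X2, and none of 9 tested was called by limma. The 6 genes listed for DNA replication summed to 9.77 to 11.6 FPKM in D6 and 4.72 to 8.99 in X2, and 1 of 4 tested, the licensing factor MCM3, was called higher in D6. The 4 photosynthesis genes summed to 1.77 to 2.58 FPKM in D6 and 1.54 to 4.38 in X2, with none of 2 tested called. Of the 2 vascular genes, the laccase above was higher in D6 and phloem protein 2 was at means of 19.2 FPKM in D6 and 22.8 in X2, and their sums were 27.7 to 36.7 and 22.3 to 24.0. The 2 suberin genes, both anionic peroxidases, summed to 100.5 to 133 FPKM in D6 and to 11.6 to 18 in X2. No marker of these lists was at 0 in all 6 libraries. In bulk tissue, more cells of a type and more RNA per cell cannot be told apart, and the part that tissue makeup had in the differences was not tested.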

How the data were processed

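Read filtering, mapping to the potato genome SolTub_3.0 with HISAT and counting with featureCounts were done by the authors, who deposited FPKM, a value computed from gene length and the reads on a gene. These steps are described for X2. The submitters' processing notes also name CASAVA 1.8 and Bowtie 0.12.2, with no role. The table holds 42667 genes, 3646 of them predicted by the authors. Columns were assigned by name. Because 2 columns carry the name of X2 replicate 2 at 4 h, the first was taken and the other, 1 column in all, was left out.

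Comparisons used limma 3.58.1 in R 4.3.3 with eBayes and a mean-variance trend on log2(FPKM + 0.1) as deposited, without a replicate block, keeping genes whose FPKM averaged 0.5 or more over the compared libraries. A pseudocount understates changes of low genes. A call required a log2FC of 1 or more in size with p no higher than 0.01 before adjustment, and adjusted p-values are Benjamini-Hochberg over all genes tested. DESeq, which the study used, needs counts and was not run. Read numbers were recovered from the steps between FPKM values, for 29390 genes with all 539713 values within 0.05 of a whole read, and served for depth, the limit of 3 reads and an alternative test. The fits were tested on simulated data. P-values measure the spread between replicates, which for X2 are described as biological and for D6 are only numbered.

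Descriptions, gene families, pathway lists and the wound list come from the study's tables, and 1652 genes have one, so most genes called carry none. Those tables hold genes that changed after cutting in X2, so the described genes do not stand for all genes. The hormone list joins the hormone pathways with genes described by jasmonate, ethylene, auxin or gibberellin, and the pathogenesis list joins described defence genes with the plant-pathogen and amino sugar pathways. The members and lists were chosen with earlier results of these data known. Genes were named as the 10 largest differences in each direction among called, described genes averaging 5 FPKM or more without overlap. The 3 largest in each direction by the same rule without regard to description were added. So were the called PAL, PPO, CAT, SOD and Rboh genes and the 3 largest called in each direction of the other lists. The last were the 3 largest interaction terms in each direction and the 5 most abundant genes at 0 in 1 group, in each direction. Other genes are named from the lists as examples, after their values were seen. Alternatives were size factors, other filters, pseudocounts and thresholds, a replicate block, all hours in 1 model, recovered reads with limma-voom and each library left out. Same-numbered D6 and X2 replicates did not deviate together at 4 h. Python 3.11.15, numpy 2.4.6, pandas 2.3.3 and matplotlib 3.10.9 were used.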

Additional observations from a re-analysis of the deposited data

Results flagged for a closer look

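Of the 60 genes named by rule, 28 had a difference between D6 and X2 at 4 h that was unlike that at 12 h, by limma's interaction term (the difference at 4 h minus that at 12 h, on log2(FPKM + 0.1)), with a term of 1 or more in size, p no higher than 0.01 before adjustment and no higher than 0.05 after it. Their adjusted p-values ran from 0.000397 to 0.0487. Many of the 60 were named for large differences at 4 h or for large terms, so their number says nothing about genes at large.

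On the side of D6 the term was 4.50 for acyl CoA reductase (PGSC0003DMG400007405), 4.32 for the RING-type zinc finger gene (PGSC0003DMG400024061), 4.17 for the xyloglucanase inhibitor (PGSC0003DMG400008978) and 2.90 for the laccase (PGSC0003DMG400000684). It was 4.06 for the osmotin (PGSC0003DMG400003057), 3.6 for GRP 2 (PGSC0003DMG400024627), 3.59 for the AUX/IAA gene (PGSC0003DMG400013765) and 2.94 for RSI-1 (PGSC0003DMG402015689). The gibberellin regulated protein (PGSC0003DMG400001227) had 2.74, GH3.6 (PGSC0003DMG400019274) 2.47, purple acid phosphatase 20 (PGSC0003DMG400002696) 2.45 and the epimerase (PGSC0003DMG400004659) 2.42. Smaller terms were found for the Tify gene (PGSC0003DMG400028800), at 1.66, and for polyphenol oxidase (PGSC0003DMG400018914), at 1.08.

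On the side of X2 the term was -2.63 for the RWP-RK gene Novel01111, -1.79 for the MYB gene (PGSC0003DMG400015536), -1.77 for the Sigma70-like gene (PGSC0003DMG400009072) and -1.72 for both the G2-like gene (PGSC0003DMG400021857) and a TAZ gene (PGSC0003DMG400015229). The other TAZ gene (PGSC0003DMG401026984) had -1.45 and the heat shock factor (PGSC0003DMG400027036) -1.03. Novel01111 was near 0 in D6 at both hours, with means of 0.068 FPKM at 4 h and 0.060 at 12 h. The AUX/IAA gene had means of 0.109 FPKM in D6 and 0.0346 in X2 at 12 h. The terms of these genes depend on the pseudocount of 0.1. Of the genes at 0 in every 4 h library of 1 group, whose terms depend on the pseudocount, PGSC0003DMG400002093 had 3.82, PGSC0003DMG400040825 1.23 and PGSC0003DMG400012453 1.07, and Novel03267 had -5.83, Novel01367 -1.83, PGSC0003DMG400042108 -1.35 and PGSC0003DMG401024222 -1.14. The libraries of 4 h and 12 h are different tuber samples, and whether the hours were sampled or sequenced together was not tested.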

How the results depend on the processing

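Of the 60 named genes called at 4 h, 55 kept their call and their direction in every other fit that tested them, and none reversed. Of the 60, 57 were tested at a mean FPKM of 1 or more, and 56 reached a log2FC of 1.5. A pseudocount of 1 lowered the genes called from 3516 to 2300 and those higher in X2 from 1611 to 942, and a log2FC of at least 1.5 lowered them to 2108 and 783. That threshold also lowered the interaction calls to 653 against 12 h and 906 against 24 h. Leaving out 1 library at a time gave 3118 to 3622 genes called, 1704 to 1842 higher in D6, 1355 to 1810 higher in X2, 23 to 27 calls in the browning families, 58 to 60 named genes, and 1120 to 1472 and 1357 to 1808 interaction calls against 12 h and 24 h. The other alternatives stayed within 1.5 times the main counts, among them 3447 genes by limma-voom on recovered reads and 3656 with all hours in 1 model. Same-numbered replicates of D6 and X2 share only a number: their deviations correlated at -0.158, -0.0838 and -0.192 across genes. With the replicate block 3387 genes were called, 1829 higher in D6 and 1558 higher in X2, with 26 calls in the browning families, 60 named genes, and 1280 and 1465 interaction calls. Genes under about 3 reads per library cannot be ordered at this depth.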
